A study of Mus musculus with 2 samples.

Results

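Krt7, Krt8, Krt18 and Krt19 encode the simple epithelial keratins, and they were chosen by symbol as 4 of the 32285 genes in the count matrices of E10.5 mouse hearts. Their RNA was followed through gated cell classes and cardiomyocyte subtypes of a BubR1 knockout library and a wildtype library. The 4 genes were picked with earlier results of these data in view, so their differences between libraries are given as descriptions, with no test. Krt8 stood higher in knockout than in wildtype cardiomyocytes and mesenchymal cells, with a smaller difference in Krt18. The mesenchymal Krt18 difference depended on which cells were kept. Krt8 was also higher in the other classes compared, including blood cells, which should lack it. Its log2 ratio of knockout over wildtype was 3.62 in erythroid cells and 2.90 in macrophages, against 3.02 in cardiomyocytes. Relative to the median gene of each class, these ratios were 1.63, 2.93 and 2.94. The macrophage ratio rests on 16 knockout and 6 wildtype UMIs. Krt19 stood lower in knockout ventricular cardiomyocytes, and Krt7, Krt18 and Krt19 lower in knockout epicardial cells.

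Keratins are intermediate filament proteins, and each filament needs a type II keratin (here Krt7 or Krt8) paired with a type I keratin (here Krt18 or Krt19). Krt8 and Krt18 are the first keratins made in the mouse embryo and the standard pair of single-layered epithelia. Krt7 is a type II keratin of ducts and mesothelia, and Krt19 is a type I keratin without the usual tail domain. In the heart, the epicardium is a mesothelium rich in these keratins, and Krt8 with Krt19 is also known from striated muscle of adult rodents, near the sites where filaments meet the membrane.

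The knockout hearts were BubR1fl/fl with 1 copy of Nkx2.5-cre, and the wildtype hearts were BubR1+/+ with the same Cre. BubR1, encoded by Bub1b, is a protein of the spindle assembly checkpoint. Nkx2.5-cre acts in cardiac progenitors and their descendants, so cells of other origin in the same pool may keep an intact gene, and which cells had recombined was not measured. For each genotype, 4 hearts were pooled into 1 droplet library (10x Chromium 3' chemistry), after the embryos had stayed on ice for 3 hours. With 1 library per genotype there is no replicate, and every interval below is at 95% and covers counting error only.

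Barcodes with at least 3000 UMIs, at least 500 genes and at most 20% mitochondrial UMIs were kept as cells. The knockout library held 5966 cells with a median of 17042.5 UMIs, and the wildtype library held 7440 cells with a median of 9504.5 UMIs. The minimum of genes removed 15 knockout and 3642 wildtype barcodes, and 8 barcode sequences occurred in both libraries. Bub1b stood at 32.1 CPM in knockout and 57.0 CPM in wildtype cardiomyocytes, but at 44.6 and 24.4 CPM in epicardial cells. Which exons of Bub1b were floxed is not given, and 3' reads outside them would check nothing. Cells were gated by fixed markers that include no keratin, which placed 671 knockout and 701 wildtype cells as cardiomyocyte-like, and the classes are named below without that suffix. Epicardial-like cells numbered 1917 and 868, and mesenchymal-like cells 419 and 1432. In each class checked, 0 of the 10 leading genes were markers of another class.

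In the mouse genome (GRCm38, GENCODE vM21), 3 of the 4 genes lie on chromosome 15, in the type II keratin cluster. Krt7 (ENSMUSG00000023039) spans chr15:101411043-101430313 on the plus strand. Krt8 (ENSMUSG00000049382) spans chr15:101996698-102004482 on the minus strand. Krt18 (ENSMUSG00000023043) spans chr15:102028180-102032027 on the plus strand, and it is the type I gene that sits beside its type II partner. Between Krt8 and Krt18 lie 23697 bases with 0 whole genes. Krt19 (ENSMUSG00000020911) is apart, at chr11:100140810-100148665 on the minus strand, among 25 keratin genes of chromosome 11.

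The RefSeq promoter windows of Krt8 and Krt18 (GRCm38.p6) are shown because this neighbouring pair is the one whose UMIs in knockout cardiomyocytes came close to 1 to 1. Each runs from 250 bases before the RefSeq start to 50 after it, and the GENCODE start of each gene lies within its window. Capitals mark matches of the letters TATAA on either strand, a TATA box core. Krt8 is chr15:102004293-102004592 on the minus strand, and Krt18 is chr15:102027966-102028265 on the plus strand.
Krt8: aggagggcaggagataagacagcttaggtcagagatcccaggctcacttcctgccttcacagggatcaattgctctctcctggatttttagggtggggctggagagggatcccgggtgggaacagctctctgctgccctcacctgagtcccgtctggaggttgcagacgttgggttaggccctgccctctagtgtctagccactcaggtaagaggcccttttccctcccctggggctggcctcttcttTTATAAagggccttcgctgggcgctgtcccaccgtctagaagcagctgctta
Krt18: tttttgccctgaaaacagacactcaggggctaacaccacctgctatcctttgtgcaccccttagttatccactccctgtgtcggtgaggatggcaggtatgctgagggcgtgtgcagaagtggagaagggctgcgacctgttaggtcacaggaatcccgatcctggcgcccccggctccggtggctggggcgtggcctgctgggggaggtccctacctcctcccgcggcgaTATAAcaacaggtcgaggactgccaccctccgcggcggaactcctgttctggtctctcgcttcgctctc
The Krt8 window holds 2 overlapping matches, one on each strand, and the Krt18 window holds 1. TATAA occurs in 24.9% of 32851 promoter windows of this length. The GC box letters GGGCGG occur in 35.7% of windows, with 4 matches in the window of Krt7 and 0 in those of Krt8 and Krt18. The AP-1 letters TGANTCA occur in 7.81% of windows and matched none of the 3. A match is a description of letters and not a site of binding.

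Keratin level was expressed as CPM, the UMIs of a gene scaled to a total of 1000000 UMIs over all cells of that class in that library. These are UMIs from the 3' end, so CPM counts molecules and was not divided by length. Epithelial-like cells, few in number, had the highest Krt8, at 3202 CPM [3026, 3386] in 20 knockout cells and 243 CPM [162, 352] in 9 wildtype cells. Krt18 stood at 3130 CPM in the knockout epithelial-like cells and 122 CPM in the wildtype ones. With so few cells, 1 knockout cell alone held 195 Krt8 UMIs, so these levels describe those cells and are not compared.

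Hepatic-like cells were gated in the knockout library alone, 63 cells against 0 wildtype cells, and they carried Krt8 and Krt18 with little else. Their Krt8 stood at 183 CPM [164, 203] and their Krt18 at 206 CPM [186, 228]. Krt7 and Krt19, which liver parenchyma is known to lack, stood at 10.6 and 13.3 CPM there. Their gate used liver markers such as Afp and Alb.

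Epicardial cells were next, with each of the 4 keratins between 126 and 192 CPM in knockout and between 96.2 and 310 CPM in wildtype. Below them Krt8 ran in the knockout library through cardiomyocytes at 54.7 CPM [51.0, 58.7], megakaryocytes at 32.1 CPM [25.1, 40.4] and mesenchymal cells at 22.1 CPM [18.5, 26.3]. The intervals of megakaryocytes and mesenchymal cells overlapped. Macrophages at 14.7 CPM, blood progenitors at 12.5 CPM, erythroid cells at 7.60 CPM and endothelial cells at 5.57 CPM closed the order, and the interval of each of these overlapped its neighbour's.

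In the wildtype library Krt8 was far more restricted. It stood at 96.2 CPM [89.7, 103] in epicardial cells and at 6.77 CPM [5.32, 8.48] in cardiomyocytes. The arterial wall at 2.39 CPM, macrophages at 1.98 CPM, endothelial cells at 1.40 CPM and mesenchymal cells at 1.25 CPM overlapped each other, and erythroid cells stood at 0.617 CPM [0.319, 1.08]. Krt19 took a different course: in wildtype it stood at 310 CPM [298, 322] in epicardial cells and 69.0 CPM [64.2, 74.1] in cardiomyocytes. Megakaryocytes at 27.1 CPM [12.4, 51.4], from 39 cells, and the arterial wall at 19.1 CPM [14.4, 24.8] came next and overlapped. Macrophages stood at 9.57 CPM, and endothelial cells at 4.96 CPM and mesenchymal cells at 4.55 CPM overlapped.

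Over all kept cells Krt8 stood at 74.6 CPM in the knockout and 13.1 CPM in the wildtype library, and Krt18 at 98.3 and 32.7 CPM. These 2 were at least 2-fold higher (7.16% of genes were) and 0 were 2-fold lower (12.9%). Epicardial cells made up 32.1% of knockout and 11.7% of wildtype cells, so the classes are taken one by one.

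**Figure D1:**
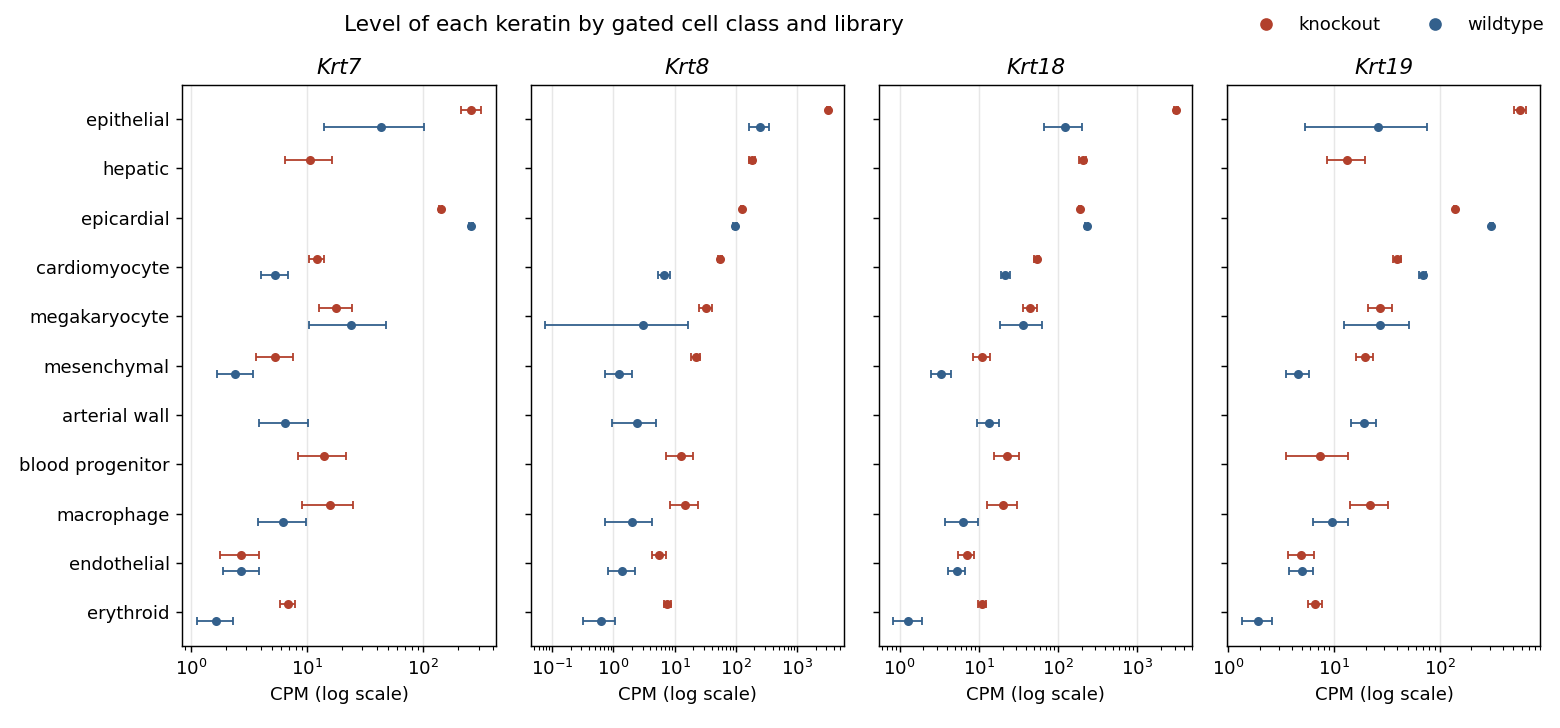
CPM of each keratin (log axis) by gated class, knockout above wildtype, with exact Poisson intervals. Classes with fewer than 9 cells or 0 UMIs have no point. Krt8 in cardiomyocytes lies at 54.7 CPM in the knockout and 6.77 CPM in the wildtype library, while epicardial Krt8 lies at 126 and 96.2 CPM.

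In cardiomyocytes both the level and the make-up of the keratins differed between the libraries. Krt8, the type II keratin, had 792 UMIs or 54.7 CPM [51.0, 58.7] in knockout cardiomyocytes and 75 UMIs or 6.77 CPM [5.32, 8.48] in wildtype cardiomyocytes. The intervals lie far apart, and the log2 ratio of knockout over wildtype was 3.02 [2.67, 3.38]. By that ratio Krt8 ranked 61 from the top among 14173 genes that reached 20 UMIs there. Krt7, the other type II keratin, stood at 12.2 CPM [10.4, 14.1] in knockout and 5.32 CPM [4.05, 6.87] in wildtype cardiomyocytes. Its log2 ratio was 1.19 [0.76, 1.64]. With each cell thinned to 3000 UMIs by random draw, that ratio was 0.16, from few UMIs.

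Krt18, the type I partner of Krt8, had 787 UMIs or 54.4 CPM [50.7, 58.3] in knockout and 241 UMIs or 21.7 CPM [19.1, 24.7] in wildtype cardiomyocytes. Its log2 ratio was 1.32 [1.11, 1.54]. Krt19, the type I keratin known from muscle, went the other way, at 39.7 CPM [36.6, 43.1] in knockout and 69.0 CPM [64.2, 74.1] in wildtype cardiomyocytes. Its log2 ratio was -0.80 [-0.96, -0.64]. With cells thinned, the ratio of Krt18 was 0.80, under 2-fold, and its shares were 10.3% [8.09, 12.8] of knockout and 6.99% [5.22, 9.14] of wildtype cells. Without thinning, at least 2-fold higher in knockout cardiomyocytes were 3 of the 4 keratins, where 5.7% of tested genes were, and 0 were 2-fold lower, where 4.41% of genes were. In the thinned draw Krt8 was past 2-fold and Krt7 and Krt18 were not. Thinning is a random draw that left few UMIs, with Krt7 found in 15 knockout and 11 wildtype cells. CPM is already scaled to depth, so these movements are not read as effects of depth. With cells weighted equally by the mean of the CPM of each cell, the ratios of the 4 keratins stayed within their counting intervals. Since the keratins were chosen with such values known, nothing more is read from these counts.

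Knockout cardiomyocytes thus held Krt8, Krt18 and Krt19 in similar amounts, and wildtype cardiomyocytes mostly Krt19. Of the 4 keratins' UMIs, Krt8 made up 34.0% in knockout and 6.58% in wildtype cardiomyocytes. Krt18 made up 33.8% and 21.1%, Krt19 24.7% and 67.1%, and Krt7 7.55% and 5.18%. The log2 ratio of Krt8 over Krt18 within cardiomyocytes was 0.01 [-0.13, 0.15] in the knockout and -1.68 [-2.08, -1.31] in the wildtype library. Hepatic-like cells of the knockout library were also near parity, at -0.17 [-0.39, 0.04].

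**Figure D2:**
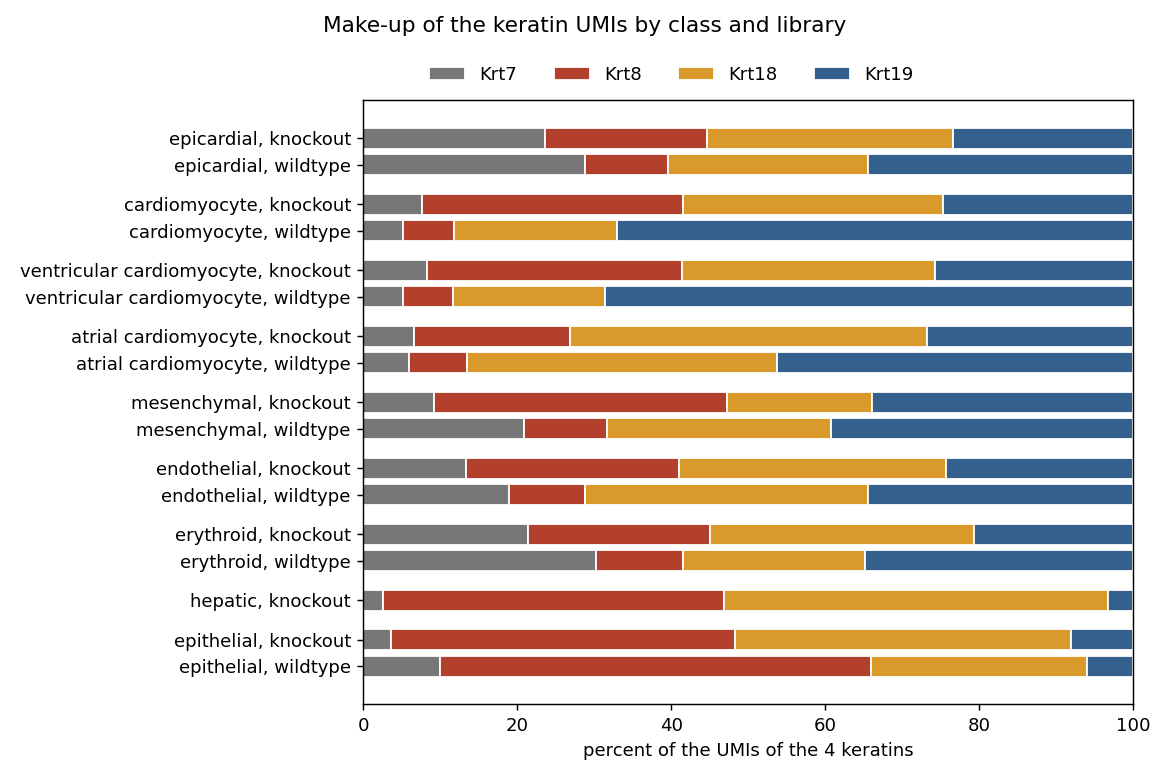
Percent of the summed UMIs of the 4 keratins that each contributes, by class and library. Krt19 fills 24.7% of the bar of knockout cardiomyocytes and 67.1% of the wildtype bar, and in hepatic-like cells Krt7 and Krt19 fill 2.58% and 3.23%.

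Among cardiomyocyte subtypes, which are ranges of marker scores and not types, ventricular cells had the lower Krt19 in the knockout library. Ventricular Krt19 stood at 36.8 CPM [33.2, 40.6] in 452 knockout cells and 83.9 CPM [77.9, 90.2] in 520 wildtype cells, a log2 ratio of -1.19 [-1.37, -1.01]. Ventricular Krt8 stood at 47.4 CPM [43.4, 51.8] in knockout and 7.84 CPM [6.09, 9.94] in wildtype, a log2 ratio of 2.60 [2.23, 2.99]. For Krt18 the levels were 47.1 and 24.2 CPM, and for Krt7 they were 11.8 and 6.34 CPM. At 2-fold, 1 keratin was higher (background 5.45%) and 1 was lower (4.61%), but with cells thinned Krt19 was at -0.83, under 2-fold. Within 0.1 of the next subtype score lay 10 knockout and 7 wildtype ventricular cells.

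Atrial cells differed from ventricular cells in the direction of Krt19. They had 37 Krt19 UMIs or 33.0 CPM [23.2, 45.5] in 59 knockout cells and 31 UMIs or 14.7 CPM [10.0, 20.9] in 142 wildtype cells, a log2 ratio of 1.16 [0.44, 1.90]. Atrial Krt8 stood at 25.0 CPM [16.6, 36.1] in knockout and 2.38 CPM [0.77, 5.55] in wildtype. Atrial Krt18 stood at 57.1 CPM [44.0, 72.9] and 12.8 CPM [8.46, 18.7]. Of its 64 knockout UMIs, 1 cell alone held 25, which the interval does not cover. The 3 keratins with at least 20 UMIs were all at least 2-fold higher (background 3.15%) and 0 were lower (6.3%). In wildtype, ventricular Krt19 thus stood well above atrial Krt19, while in knockout the intervals overlapped. After thinning, Krt18 was found in 3.39% of knockout and 6.34% of wildtype atrial cells, against 35.6% and 13.4% unthinned, and the log2 ratio turned to -1.05 on few UMIs.

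The other subtypes had 6 to 17 wildtype cells and are described in the knockout library. Outflow tract cells had the most Krt8, at 184 CPM [156, 215] in 41 cells, with Krt18 at 139 CPM [115, 166] and Krt19 at 81.8 CPM [63.8, 103]. They held 157 of the 792 Krt8 UMIs of knockout cardiomyocytes. Outflow tract cells made up 6.11% of knockout and 0.856% of wildtype cardiomyocytes, atrioventricular canal cells 10.9% and 2.28%, and atrial cells 8.79% and 20.3%. The values of all cardiomyocytes thus mix subtypes in unlike shares. For outflow tract cells, other values follow. Their Krt7 was at 5.84 CPM [1.90, 13.6], and 10 of the 41 cells lay within 0.1 of another subtype. Atrioventricular canal cells (73) stood at 73.1 CPM for Krt8 and 68.3 CPM for Krt18. Sinoatrial cells (46) had 20.2 CPM of Krt8 and 12.4 CPM of Krt19.

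Epicardial marker RNA was higher in knockout cardiomyocytes, as were Krt7, Krt8 and Krt18 but not Krt19, so its values stand beside them. The 12 epicardial markers, of which 0 were at zero in either library, summed to 331 CPM in knockout and 123 CPM in wildtype cardiomyocytes, against 3209 and 4119 CPM in epicardial cells. In knockout cardiomyocytes the markers summed to 514 CPM in the 268 cells with a Krt8 UMI and 151 CPM in the 403 without. The wildtype values were 353 CPM in 49 cells with Krt8 and 99.1 CPM in 652 without. Split by Krt19, the sums were 564 CPM with it and 146 CPM without in knockout, and 155 and 92.1 CPM in wildtype. Cells with a Krt8 UMI were also deeper, with medians of 23537 UMIs against 16484 without it in the knockout library. The troponin gene Tnnt2 stood at 3061 CPM in knockout cardiomyocytes with Krt8 and 3576 CPM in those without.

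The keratins were therefore measured again in cardiomyocytes with 0 UMIs of Upk3b, Upk1b, Wt1 and Aldh1a2, which left 433 knockout and 603 wildtype cells. Krt8 stood at 48.9 CPM [44.1, 54.0] in these knockout cells and 5.10 CPM [3.73, 6.80] in these wildtype cells, with a log2 ratio of 3.26. Krt18 stood at 43.1 and 18.6 CPM, and Krt19 at 34.9 and 67.2 CPM. The differences in Krt8, Krt18 and Krt19 were about as large there as in all cardiomyocytes. Finding 0 UMIs of 4 markers does not show that a cell holds no epicardial RNA, and the part of that RNA was not tested. Krt7 was scarce there in both libraries, at 12 UMIs or 1.53 CPM [0.79, 2.68] in the knockout cells and 4 UMIs or 0.443 CPM [0.12, 1.14] in the wildtype cells, with a log2 ratio of 1.79. In atrial cells treated alike (39 and 118 cells), Krt19 was at 11.7 CPM [4.71, 24.2] in knockout and 8.44 CPM [4.62, 14.2] in wildtype, and the intervals overlapped. Atrial Krt18 was there at 23.4 CPM [12.8, 39.3] in knockout and 7.84 CPM [4.18, 13.4] in wildtype, and these intervals overlapped as well.

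**Figure D3:**
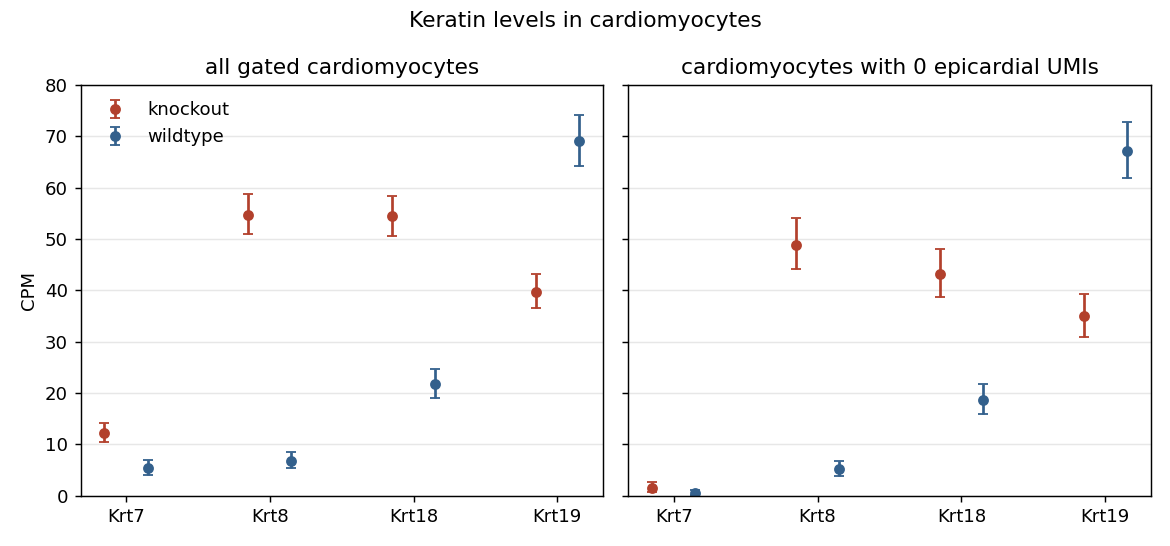
CPM of the keratins in all gated cardiomyocytes (left) and in those with 0 UMIs of 4 epicardial markers (right), with exact Poisson intervals, knockout left of wildtype. Krt8 stays at 48.9 and 5.10 CPM in the right panel, while Krt7 comes down to 1.53 and 0.443 CPM.

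Barcodes of 10 to 100 UMIs, taken as free RNA, held 66 Krt8 UMIs of 1319882 UMIs in the knockout and 3 of 417550 in the wildtype library. Free RNA was estimated from the marker of another class that was lowest in cardiomyocytes, relative to those barcodes. That marker was the lowest of 18 in the knockout and of 7 in the wildtype library, and the estimate has no counting interval. It gave 2.44% of the Krt8 UMIs of knockout cardiomyocytes. In wildtype cardiomyocytes it gave 26.5% for Krt8, 19.9% for Krt19 and 67.4% for Krt7. In knockout macrophages the same step gave 0% for Krt8, because the marker Emcn was at zero there. Taking the lowest marker can thus give too low a value, so no upper limit on free RNA is drawn from these percentages. With the highest doublet scores left out, the log2 ratio of Krt8 was 3.33.

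Shares of cells with a UMI were compared after each cell was thinned to 3000 UMIs, because knockout cells were deeper. Krt8 was found in 11.3% [9.03, 14.0] of thinned knockout cardiomyocytes and 1.28% [0.59, 2.42] of wildtype ones. Without thinning the shares were 39.9% and 6.99%, at median depths of 19082 and 14133 UMIs. Krt19 was found in 12.7% [10.2, 15.4] of thinned knockout and 15.8% [13.2, 18.8] of wildtype cardiomyocytes, with overlapping intervals, and unthinned in 35.6% and 41.5%. Erythroid cells, which should lack keratins, had Krt8 in 1.00% of thinned knockout and 0.122% of wildtype cells, and in 5.69% and 0.608% unthinned, at medians of 20755.5 and 11485 UMIs. The knockout cardiomyocyte share of Krt8 thus stood above the erythroid one. Erythroid markers took 414649 CPM of the knockout erythroid cells, which lowers the shares of other genes there. Of 135 thinned knockout megakaryocytes, 2.96% [0.81, 7.41] had Krt8 and 10.4% [5.79, 16.8] had Krt18. That Krt18 share was like the 10.3% of thinned knockout cardiomyocytes.

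The keratin UMIs were unevenly spread over cardiomyocytes. In the knockout library the 68 cells with the most UMIs of the gene held 60.6% of the Krt8 UMIs and 52.1% of the Krt18 UMIs. Of knockout cardiomyocytes with Krt8, 72.4% [66.6, 77.7] also had Krt18, against 33.5% of those without Krt8. In the wildtype library these shares were 46.9% [32.5, 61.7] and 21.6%. After thinning they were 21.1% [12.5, 31.9] and 8.91% in the knockout library and 22.2% and 6.79% in the wildtype library, where 2 cells had both and 7 had Krt8 alone. No difference between the libraries in this co-detection was detectable at that number of cells. All 4 keratins were seen together in 6.56% of knockout and 0.856% of wildtype cardiomyocytes without thinning. After thinning they were seen together in 0 of 671 knockout cells, which allows a share of up to 0.548%, and in 1 of 701 wildtype cells, so no difference was detectable at equal depth.

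Mesenchymal cells had little keratin in the wildtype library and more in the knockout library. Krt8 had 129 UMIs or 22.1 CPM [18.5, 26.3] in 419 knockout cells and 17 UMIs or 1.25 CPM [0.73, 2.0] in 1432 wildtype cells. The log2 ratio was 4.15 [3.41, 4.97], rank 8 of 14289 genes. Krt7 stood at 5.32 and 2.42 CPM. Among type I keratins, Krt18 stood at 10.99 CPM [8.46, 14.0] in knockout and 3.38 CPM [2.47, 4.51] in wildtype, and Krt19 at 19.7 CPM [16.3, 23.7] and 4.55 CPM [3.49, 5.84]. All 4 were at least 2-fold higher (background 3.09%) and 0 lower (12.1%).

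The sum of the 12 epicardial markers was 315 CPM in knockout and 628 CPM in wildtype mesenchymal cells, with Msln at zero in knockout. Upk3b, a uroplakin of the mesothelial surface, stood at 85.5 CPM in knockout cells with Krt8 and 16.7 CPM in those without, and in wildtype at 111 CPM in the 16 cells with Krt8 and 7.21 CPM in the 1416 without. The marker sum itself was 576 CPM in knockout cells with Krt8 and 266 CPM without, and in wildtype 1107 CPM with Krt8 and 621.5 CPM without. The markers were thus higher in the cells with Krt8 in both libraries, and their part in the keratin difference was not tested. In cells with 0 UMIs of the 4 epicardial markers (319 knockout, 812 wildtype), Krt8 stood at 14.98 CPM [11.5, 19.2] and 0.888 CPM [0.33, 1.93]. There Krt19 stood at 10.6 and 1.04 CPM, but Krt18 at 4.67 CPM [2.81, 7.29] and 2.81 CPM [1.69, 4.39], which overlapped. Krt8 led Krt18 in the knockout mesenchymal cells, with a log2 ratio between them of 1.01 [0.57, 1.47], while in wildtype it was -1.44 [-2.33, -0.61]. A Krt8 UMI was found in 5.25% of thinned knockout and 0.419% of wildtype cells, and in 14.1% and 1.12% unthinned. Under a stricter gate (287 knockout and 841 wildtype cells), the log2 ratio of Krt8 was 3.34, that of Krt18 0.52 and that of Krt7 -0.70, which turned its direction.

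Endothelial and endocardial cells held little keratin. Krt8 stood at 5.57 CPM [4.23, 7.20] in knockout and 1.40 CPM [0.82, 2.25] in wildtype cells, a log2 ratio of 1.99 [1.19, 2.86]. The knockout level lies below the 7.60 CPM [6.58, 8.72] of knockout erythroid cells, with intervals that overlapped, and its thinned share of 0.789% below their 1.00%. In wildtype, endothelial Krt18 at 5.29 CPM [4.07, 6.75] and Krt19 at 4.96 CPM [3.78, 6.38] lay above the erythroid 1.29 CPM [0.83, 1.90] and 1.90 CPM [1.34, 2.62]. Erythroid markers summed to 635834 CPM in wildtype erythroid cells and 15085 CPM in wildtype endothelial cells. In the knockout library these sums were 414649 and 1269 CPM. Such totals lower the CPM of other genes in erythroid cells, so the endothelial and erythroid keratin levels are not on equal terms. The source of the endothelial keratin UMIs was not tested. Krt7 and Krt19 differed little, with log2 ratios of -0.02 each, and Krt18 had 0.41 [-0.10, 0.91]. One keratin was 2-fold higher (background 2.42%) and 0 were lower (8.05%).

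**Figure D4:**
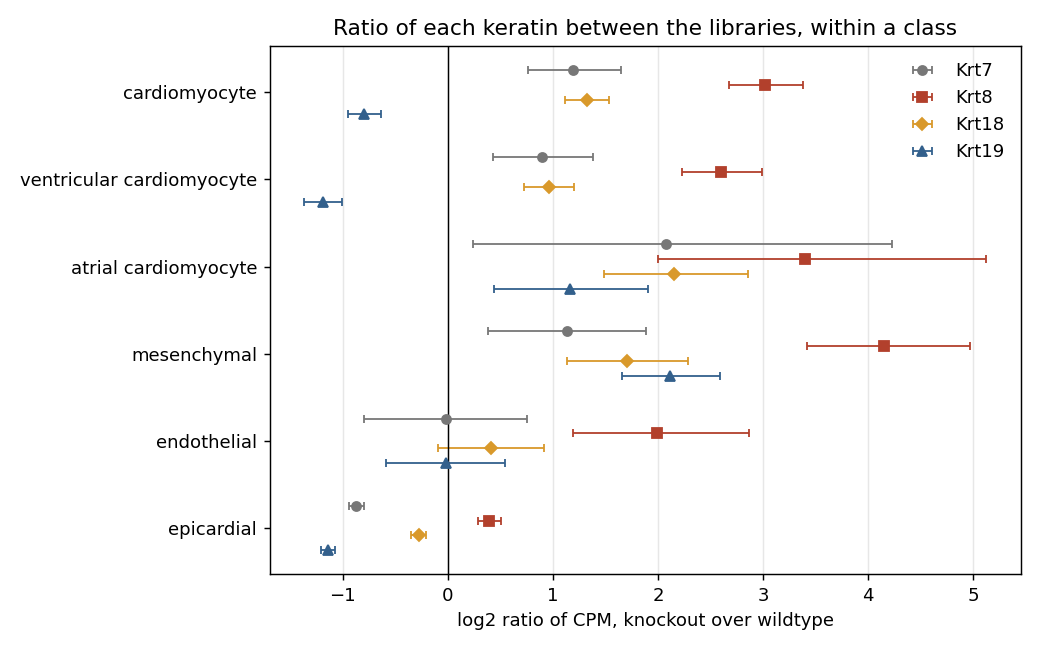
Log2 ratio of CPM, knockout over wildtype, of each keratin in 6 classes or subtypes, with exact conditional binomial intervals. Krt8 lies above 0 in each, from 0.39 in epicardial to 4.15 in mesenchymal cells, while Krt19 lies at -0.80 in cardiomyocytes and 2.12 in mesenchymal cells.

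Blood cells, which should lack these keratins, also held more Krt8 UMIs in the knockout library. The log2 ratio of Krt8 was 3.62 [2.79, 4.60] in erythroid cells, 2.90 [1.47, 4.54] in macrophages and 3.41 [0.89, 8.74] in megakaryocytes, against 3.02 in cardiomyocytes. Relative to the median gene of each class, these ratios were 1.63, 2.93, 3.28 and 2.94. The knockout level of megakaryocytes (32.1 CPM) lay above that of mesenchymal cells (22.1 CPM), with intervals that overlapped, and the macrophage interval [8.42, 23.9] overlapped the mesenchymal one. In erythroid cells the median gene itself had a log2 ratio of 1.99, and 76.2% of genes were at least 2-fold higher in knockout, as were all 4 keratins, with 4.09% of genes lower. The erythroid keratin UMIs of the knockout library were 21.3% Krt7, 23.7% Krt8, 34.3% Krt18 and 20.6% Krt19, near the epicardial make-up of that library. Knockout cardiomyocytes, with 7.55% Krt7, had another make-up. In macrophages (47 knockout and 284 wildtype cells) all 4 keratins were 2-fold higher (background 5.31%, lower 11%), with Krt8 at 14.7 and 1.98 CPM, while the epicardial markers summed to 375 and 122 CPM. In megakaryocytes Krt8 had 72 UMIs in knockout and 1 UMI in wildtype, the one keratin past 2-fold (background 16%, lower 9.57%), at epicardial marker sums of 608 and 653 CPM. Without thinning, Krt8 was found in 5.69% of knockout erythroid cells and 14.8% of knockout megakaryocytes, against 39.9% of knockout cardiomyocytes. All 4 keratins were seen together in 2.34%, 7.41% and 6.56% of these cells, so the blood cell levels come from a minority of cells. The part of epicardial RNA in these blood cell values was not tested.

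Epicardial cells carried 21793 keratin UMIs in the knockout and 7461 in the wildtype library, and here Krt7, Krt18 and Krt19 were lower in knockout. Krt7 stood at 141 CPM [138, 145] in knockout and 259 CPM [248, 270] in wildtype epicardial cells, a log2 ratio of -0.87 [-0.94, -0.80]. Krt8 was slightly higher, at 126 CPM [123, 130] and 96.2 CPM [89.7, 103], a log2 ratio of 0.39 [0.28, 0.50]. The type II keratins differed in share: Krt8 made up 21.1% of the keratin UMIs in knockout and 10.7% in wildtype, and Krt7 23.6% and 28.8%.

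Of the type I keratins in epicardial cells, Krt18 stood at 192 CPM [188, 197] in knockout and 233 CPM [223, 243] in wildtype, a log2 ratio of -0.28 [-0.35, -0.20]. Krt19 stood at 140 CPM [136, 144] and 310 CPM [298, 322], a log2 ratio of -1.14 [-1.21, -1.07]. Krt19 alone was at least 2-fold lower (background 12.1%), and 0 were 2-fold higher (6.73%). Thinned shares gave the same order, with Krt19 in 30.8% of knockout and 48.6% of wildtype cells, and Krt8 in 28.1% and 20.7%. Without thinning the Krt19 shares were 77.4% and 76.8%, at medians of 17306 and 8679 UMIs. The epicardial markers themselves summed to 3209 CPM in knockout and 4119 CPM in wildtype, and their part in the keratin differences was not tested.

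Within each library, epicardial cells with a higher epicardial marker score held more keratin. In 3 equal groups of cells from low to high score, Krt19 stood at 130, 137 and 151 CPM in knockout and at 229, 285 and 398 CPM in wildtype. Krt7 stood at 111, 143 and 165 CPM in knockout and 163, 240 and 354 CPM in wildtype. For Krt8 the 3 groups were at 118, 126 and 133 CPM in knockout and 60.2, 87.8 and 133 CPM in wildtype, so the high groups coincided. The score groups were cut within each library, and median depth also differed along them, from 15683 to 19166 UMIs in knockout and from 7739.5 to 9627 UMIs in wildtype. Of epicardial cells with Krt8, 92.5% in knockout and 84.8% in wildtype also had Krt18 without thinning, but 48.3% [44.0, 52.6] and 56.1% [48.5, 63.5] after thinning, so the order turned and the intervals overlapped.

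**Figure D5:**
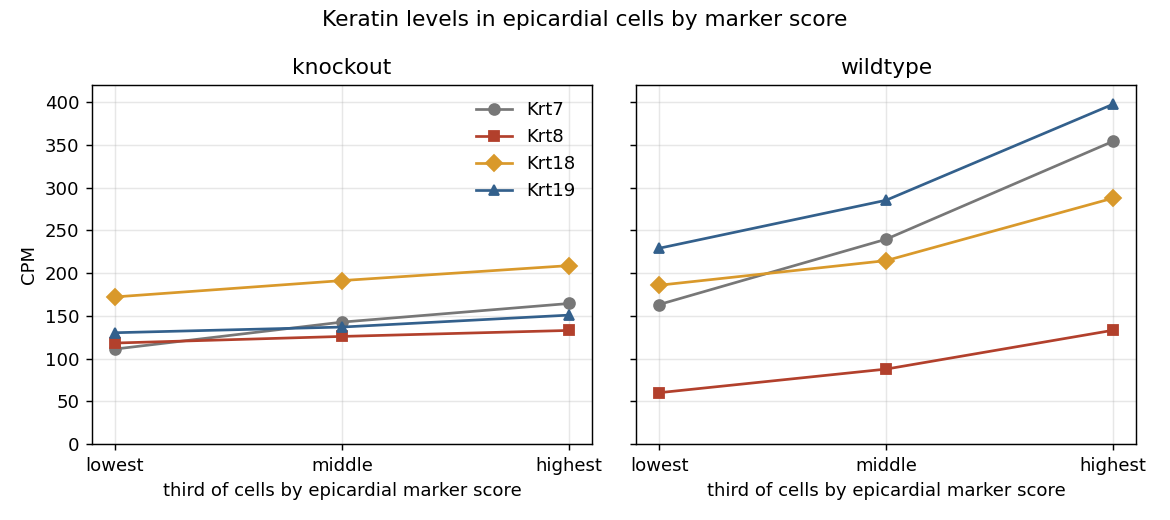
CPM of the keratins in epicardial cells, split into 3 equal groups by epicardial marker score within each library (knockout left). Krt8 reaches 133 CPM in the high group of both libraries, whereas Krt19 reaches 151 CPM in knockout and 398 CPM in wildtype.

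The other keratins were scarce. Of 45 further keratin genes, 15 had 0 UMIs and 35 had fewer than 20 over both libraries, and the 4 simple epithelial keratins held 91.7% of all keratin UMIs. Krt10, a type I keratin of the epidermis, was the most abundant of these and similar in cardiomyocytes, at 14.5 and 12.2 CPM. Of 5 tested in cardiomyocytes, 1 was 2-fold higher and 2 were lower, against 5.7% and 4.41% of all genes there. Of 7 tested in epicardial cells, 0 were 2-fold higher (6.73% of all genes there) and 3 lower (Krt14, Krt222 and Krt17; 12.1% of all genes). Krt14, a keratin of basal epidermis, stood at 2.84 CPM in knockout and 24.1 CPM in wildtype. Their median log2 ratio was -0.37, against -0.03 for all genes there. Of 5 tested in mesenchymal cells, 0 were higher (3.09% of all genes) and 3 (Krt23, Krt20 and Krt79) lower (12.1%).

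Other intermediate filament genes were taken from a list. Of 9 tested other intermediate filament genes in cardiomyocytes, 1 (Nefl, at 6.77 and 1.90 CPM) was 2-fold higher and 0 lower (5.7% and 4.41% of all genes), with a median log2 ratio of -0.09 against 0.07 for all genes. Des, the filament of muscle, stood at 466 CPM in knockout and 435 CPM in wildtype, and Vim, that of mesenchyme, at 464 and 664 CPM. In epicardial cells 2 of 9 (Nefl and Nefm) were higher (6.73% of all genes) and Des was lower (12.1%), at 14.0 CPM in knockout and 79.0 CPM in wildtype. In mesenchymal cells 0 of 9 were higher (3.09% of all genes) and 3 (Des, Nefm and Nefl) lower (12.1%), with Des at 13.2 CPM in knockout and 35.5 CPM in wildtype. In the lists of this and the next paragraphs, genes behind counts of 5 or fewer are named after their values were seen.

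The desmosome and plakin genes that anchor keratins had 1 of 10 tested higher in cardiomyocytes (Ppl) and 0 lower, where 5.7% and 4.41% of all genes were, with a median log2 ratio of -0.19. Desmoplakin (Dsp), which ties filaments to desmosomes, stood at 217.5 CPM in knockout and 236 CPM in wildtype. In mesenchymal cells 2 of 11 (Dsp and Dsc2) were higher and 0 lower, against 3.09% and 12.1% of all genes, with Dsp at 79.1 and 39.2 CPM. In epicardial cells 2 of 12 (Dsg2 and Dsc2) were higher and 3 (Ppl, Evpl and Perp) lower, against 6.73% and 12.1%, with the desmosomal cadherin Dsg2 at 73.7 and 30.9 CPM. Epithelial polarity and tight junction genes had 1 of 6 higher in cardiomyocytes (Cgn; 5.7% of all genes) and 1 of 8 lower in epicardial cells (Cldn3; 12.1%). Of 4 tested epithelial transcription factors, Grhl1 was higher in cardiomyocytes (5.7% of all genes), and Klf4 and Klf5 were lower in epicardial cells (12.1%). Klf4 stood at 13.0 CPM in knockout and 86.4 CPM in wildtype epicardial cells.

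Mesothelial genes that gate no class differed by class. In cardiomyocytes 5 of 10 tested (Crip1, Podxl, Efemp1, Bnc1 and Slc9a3r1) were 2-fold higher and 0 lower, against 5.7% and 4.41% of all genes, with a median log2 ratio of 0.87 against 0.07. Crip1, a LIM domain protein, stood at 477 CPM in knockout and 129 CPM in wildtype, and Podxl, a surface sialomucin, at 43.0 and 6.68 CPM. In mesenchymal cells 3 of 11 (Crip1, Ezr and Podxl) were higher and 4 (Bnc2, Lgals7, Muc16 and Cldn15) lower, against 3.09% and 12.1%, with Podxl at 15.1 CPM in knockout and 1.76 CPM in wildtype. In epicardial cells 0 of 12 were higher (6.73% of all genes) and 5 (Anxa3, Muc16, Lgals7, Cldn15 and Dmkn) lower (12.1%), with a median of -0.89 against -0.03. Ezr, a linker of membrane and actin, stood at 557 and 485 CPM there, and Podxl at 189 and 102 CPM.

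Over 14 class and library groups of at least 50 cells, Krt8 and Krt18 followed each other closely. The Spearman correlation of their log2(CPM + 10) values was 0.93, while that of Krt8 with Krt19 was 0.76. The groups share 2 libraries, so this is a description. Among 12470 genes, those most like Krt8 beside Krt18 were Agmat, Ccdc92, Sowahd, Rbp4, Upk1b, Fam83b, Upk3b, Ezr and Rassf7, with values between 0.93 and 0.90. Those most like Krt18 were Pik3c2g, Pard6b, Krt8, Sowahd, Ap1s3, Cxadr, Lrp2, Agmat, Krt7 and Kif21a, with values between 0.95 and 0.90. Upk1b and Upk3b are uroplakins used here as epicardial markers, and Pard6b is a polarity protein.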

How the data were processed

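Single-cell RNA was read from 1 pooled library per genotype. The deposited count matrices list UMIs of each gene in each barcode, empty droplets included. Per the submitters' processing notes, Cell Ranger 7.1.0 and mm10 were used. Cell filters and the strand setting of the authors are not given. Krt7 overlaps the antisense gene Gm671 (290 knockout and 95 wildtype UMIs) and Krt8 the lincRNA Gm36026 (5 and 1), and without a stated strand their reads cannot be told apart. In the last 500 bases of the 4 keratins, 0 stretches of 60 bases were shared with another gene.

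The members, markers and gene lists were chosen with earlier results of these data known. Cells passed the filters stated above (79 knockout and 41 wildtype barcodes fell to the mitochondrial limit). A cell joined a class when the mean of its capped marker z-scores reached 0.5, led the next class by 0.3, and at least 40% and 3 of the markers were found. Cardiomyocyte subtype was the highest of 5 scores. Doublets were not removed beyond the gate. One listed marker, Ahsp, was not used. Cells failing the gate numbered 689 knockout and 831 wildtype.

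UMIs were summed per class and library and scaled to CPM. Levels have exact Poisson intervals, ratios exact conditional binomial ones and shares exact Clopper-Pearson ones. No test was run, since each group has 1 library. A gene counted as tested in a class from 20 UMIs in all, and called means a ratio of at least 2-fold. Genes were named as members, as up to 4 examples per list among those with most UMIs or as the 10 most like Krt8 and Krt18, apart from genes behind small counts. The ratio and its interval were tested on simulated data. Python with numpy, scipy, pandas and matplotlib was used.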

Additional observations from a re-analysis of the deposited data

Results flagged for a closer look

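The ratio of knockout to wildtype ran in opposite directions in different classes for 3 keratins. With 1 library per genotype, none of these differences was tested. Each is a difference of 2 log2 ratios, the first class minus the second.

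For Krt7, cardiomyocytes (1.19) minus epicardial cells (-0.87) gave 2.06, and mesenchymal cells (1.14) minus epicardial cells gave 2.01. For Krt18, cardiomyocytes (1.32) minus epicardial cells (-0.28) gave 1.60, and mesenchymal cells (1.70) minus epicardial cells gave 1.98. For Krt19, cardiomyocytes (-0.80) minus mesenchymal cells (2.12) gave -2.91, and mesenchymal cells minus epicardial cells (-1.14) gave 3.26. Within cardiomyocytes, ventricular (-1.19) minus atrial cells (1.16) gave -2.35 for Krt19. In cells with 0 UMIs of 4 epicardial markers, the atrial Krt19 levels overlapped between libraries.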

How the results depend on the processing

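Of the recomputed ratios, 250 stayed within their counting interval, 44 moved beyond it, and 3 whose interval excluded 0 turned direction. Direction was not judged where the interval included 0. The higher Krt8 of knockout cardiomyocytes lay between 2.82 and 3.43 and that of mesenchymal cells between 3.34 and 4.29 on the log2 scale under every alternative run. Under a stricter gate the log2 ratio was 0.73 for Krt7 in cardiomyocytes. In mesenchymal cells it was -0.70 for Krt7, 3.34 for Krt8, 0.52 for Krt18 and 1.58 for Krt19, and in epicardial cells 0.23 for Krt8. With free RNA subtracted it was 2.32 for Krt7 in cardiomyocytes and 4.63 for Krt19 in atrial cells. The atrial step used the estimate of all cardiomyocytes and took most of the 31 wildtype Krt19 UMIs. That ratio therefore rests on very few UMIs, and no larger difference is read from it.

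With cells thinned before summing, cardiomyocytes had 0.16 for Krt7, 3.43 for Krt8, 0.80 for Krt18 and -0.54 for Krt19, and ventricular cells -0.83 for Krt19. Mesenchymal cells then had 2.43 for Krt18 and 1.64 for Krt19, epicardial cells -0.20 for Krt18 and atrial cells -1.05 for Krt18, from fewer UMIs. In cells with 0 UMIs of 4 epicardial markers, an alternative chosen after seeing the data, Krt7 had 1.79 in cardiomyocytes, and Krt18 had 0.73 and Krt19 3.35 in mesenchymal cells. Relative to the median gene, erythroid Krt19 had -0.19. With the mean of the CPM of each cell in place of summed UMIs, all 32 ratios stayed within their counting intervals. Without a minimum beyond 1 UMI, genes past 2-fold higher and lower made up 16.1% and 12.7% in cardiomyocytes, 9.90% and 25.4% in mesenchymal cells, and 19.0% and 19.0% in epicardial cells.

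Leaving out the highest doublet scores took 285 knockout and 443 wildtype cells and moved 9 ratios: Krt18 to -0.42 in endothelial and 1.28 in atrial cells, Krt7 to 1.63 in ventricular cells, Krt7, Krt18 and Krt19 to 0.48, 2.26 and 0.11 in erythroid cells, and Krt7, Krt8 and Krt19 to 2.39, 4.71 and 2.71 in macrophages. Krt8 in cardiomyocytes was then at 3.33. No paired analysis was possible because each genotype has 1 library. Pools of 4 hearts hide differences between embryos, and libraries differ in depth. Counting error is the one error measured. The cause of each movement was not tested, except that thinning is a random draw that leaves fewer UMIs.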
